A study of Mus musculus with 6 samples.

Results

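The nuclear genes for the subunits of the mitochondrial respiratory chain and of the ATP synthase were examined in isolated pancreatic islets of mice with and without a beta-cell deletion of Vhlh. Members were chosen by symbol alone among probe sets that the platform annotation gives a single gene: the Nduf subunits of complex I, Sdha to Sdhd of complex II, the Uqcr genes, Cyc1 and Cycs of complex III and its carrier, Cox4i1 and the Cox5 to Cox8 genes of complex IV, and the Atp5 genes of complex V, leaving out Cox4i2 and Ndufa4l2. The rule found 82 of 18193 genes, of which 35 belonged to complex I, 4 to complex II, 10 to complex III with cytochrome c, 16 to complex IV and 17 to complex V. Where a gene had several probe sets the one with the highest log2 signal on average stood for it, and 76 of the 82 were bright enough to test.

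Gene expression had been measured on 6 Affymetrix mouse arrays, 3 of control and 3 of Vhlh knockout islets, with 1 batch of islets each. The labels describe the model of both groups as RIP2-Cre with floxed Vhlh, in which the rat insulin promoter directs Cre recombinase to beta cells, and they do not say whether the controls carried Cre. In both genotypes array 1 is labelled 26 weeks and male, array 2 as 20 weeks and female, and array 3 as 18 weeks and male. The number of mice behind a batch is not given in the sources used here, so the spread between arrays may be partly technical. Besides beta cells, islets contain other endocrine cells and a supporting tissue of vessels and stroma, which the insulin promoter is not expected to target, and in whole islets fewer cells of a type and less RNA per cell cannot be told apart.

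The respiratory chain passes electrons from NADH (complex I) and succinate (complex II) through ubiquinone to complex III, from there by cytochrome c to complex IV, and finally to oxygen, and complex V uses the resulting proton gradient to make ATP. In beta cells the ATP made from glucose in this way closes potassium channels and so couples the blood sugar level to insulin release. The von Hippel-Lindau protein marks hypoxia-inducible factor (HIF) for degradation, and stabilised HIF is known to raise glycolysis and to limit mitochondrial respiration, partly through pyruvate dehydrogenase kinase and through exchange of complex IV subunits. The comparison asks whether the transcripts of the chain itself differed once beta cells had lost it. Subunits that are encoded by mitochondrial DNA do not match the rule and are not analysed here.

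The DNA just upstream of the start is given for 6 of the genes. Shown are the member of lowest p in each complex that has an entry in the RefSeq promoter table (assembly GRCm38.p6), because the values of these genes come closest to a difference, and Cycs, whose promoter is a textbook site of the nuclear respiratory factor NRF1. Each sequence is the 150 bases before the annotated start, read 5′ to 3′ on the gene's strand. Capitals mark matches on either strand to GCANGCGC, the core letters of an NRF1 site, to CCGGAAG, the core of ETS factors such as GABPA, to GGGCGG, the GC box, and to ACGTG, the core of a HIF response element, which is also part of the E-box.
Ndufa4 (chr6:11907451-11907600, minus strand): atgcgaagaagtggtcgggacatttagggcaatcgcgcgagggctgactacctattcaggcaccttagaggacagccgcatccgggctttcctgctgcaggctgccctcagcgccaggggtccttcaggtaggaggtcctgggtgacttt
Sdhd (chr9:50603850-50603999, minus strand): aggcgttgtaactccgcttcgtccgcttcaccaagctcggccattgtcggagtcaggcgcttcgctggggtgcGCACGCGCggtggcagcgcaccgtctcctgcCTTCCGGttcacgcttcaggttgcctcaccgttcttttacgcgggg
Uqcr10 (chr11:4704345-4704494, minus strand): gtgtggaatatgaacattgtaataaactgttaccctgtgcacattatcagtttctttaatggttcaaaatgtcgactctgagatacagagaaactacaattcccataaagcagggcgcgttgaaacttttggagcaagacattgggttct
Cox6b1 (chr7:30626115-30626264, minus strand): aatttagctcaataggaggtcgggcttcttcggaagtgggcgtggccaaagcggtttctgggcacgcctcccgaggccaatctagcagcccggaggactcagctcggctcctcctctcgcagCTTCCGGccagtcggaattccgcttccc
Atp5d (chr10:80142125-80142274, plus strand): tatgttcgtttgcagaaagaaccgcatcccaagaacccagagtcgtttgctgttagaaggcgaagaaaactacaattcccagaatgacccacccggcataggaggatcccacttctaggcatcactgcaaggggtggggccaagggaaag
Cycs (chr6:50566570-50566719, minus strand): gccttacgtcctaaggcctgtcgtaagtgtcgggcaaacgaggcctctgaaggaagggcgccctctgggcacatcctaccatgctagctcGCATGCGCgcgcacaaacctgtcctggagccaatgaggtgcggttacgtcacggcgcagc
Sdhd has an NRF1 match and an ETS match, Cox6b1 an ETS match and Cycs an NRF1 match, while no match to the 4 motifs lies in these 150 bases of Ndufa4, Uqcr10 and Atp5d. The table holds 68 of the 82 members, and the first entry of each gene was searched over 250 bases upstream. The NRF1 core was found in 19 of the 68 (27.9%) against 16.2% of the 9489 tested genes with an entry, the ETS core in 11 (16.2%) against 13.7%, the GC box in 26 (38.2%) against 59.5%, and the HIF core in 16 (23.5%) against 22.2%. The shares were not tested, and a match to letters is not a bound site.

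The genes of the respiratory chain and the ATP synthase did not differ detectably between knockout and control islets. None of the 76 tested members passed an adjusted p of 0.05 in limma's test (Benjamini-Hochberg over all 11703 genes tested), where 2 genes (Ak4 and Prelid2, 0.0171% of all genes) passed, both higher in the knockout, and 0 members had an unadjusted p under 0.05, against 2.56% of all genes. Leaving out an array brought 1 member under an unadjusted limma p of 0.05 in 3 of 6 cases, Ndufa4 without control 3, Uqcr10 without knockout 1 and Sdhd without knockout 2. In these 3 fits 412, 489 and 382 of the 11703 genes tested were under that value. With all 6 arrays the lowest unadjusted p of a member was 0.119, and every adjusted p was 0.9999 or above. In 0 of the 76 members were the signals of the groups separate, while 6.71% of all genes had groups that did not overlap (4.02% higher and 2.69% lower in the knockout). With 3 arrays against 3, the two-sided exact permutation test of a single gene cannot fall below 0.1, and 0 members reached that value. With the shared array number as a block, 0 members passed as well, and 0 had an unadjusted limma p under 0.05, against 4.99% of all genes (3.68% higher and 1.31% lower).

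The size of the differences was small. The median log2 difference, knockout minus control, was 0.052 over the members and 0.005 over all genes tested, with 46 members above 0 (60.5%, against 50.8% of all genes) and 30 below. By complex the median was 0.12 for complex I (22 of 33 above 0), -0.17 for complex II (1 of 4), -0.041 for complex III with cytochrome c (5 of 10), 0.09 for complex IV (9 of 12) and 0.039 for complex V (9 of 17). The most negative difference was -0.67 (Uqcr10) and the most positive 0.70 (Atp5d). The 95% interval lay within a 2-fold change either way for 58 of the 76 members (76.3%), while it did so for 46% of all genes tested. For the other 18 a 2-fold change in at least 1 direction lies inside the interval, and for no member do these arrays show that the level was equal. Of the 76 members 75 lay above the array median on all 6 arrays, as did 9762 of the 11703 genes tested. The median standard error was 0.31 for the members and 0.35 for all genes tested. The part of brightness in the shares within 2-fold was not tested.

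**Figure D1:**
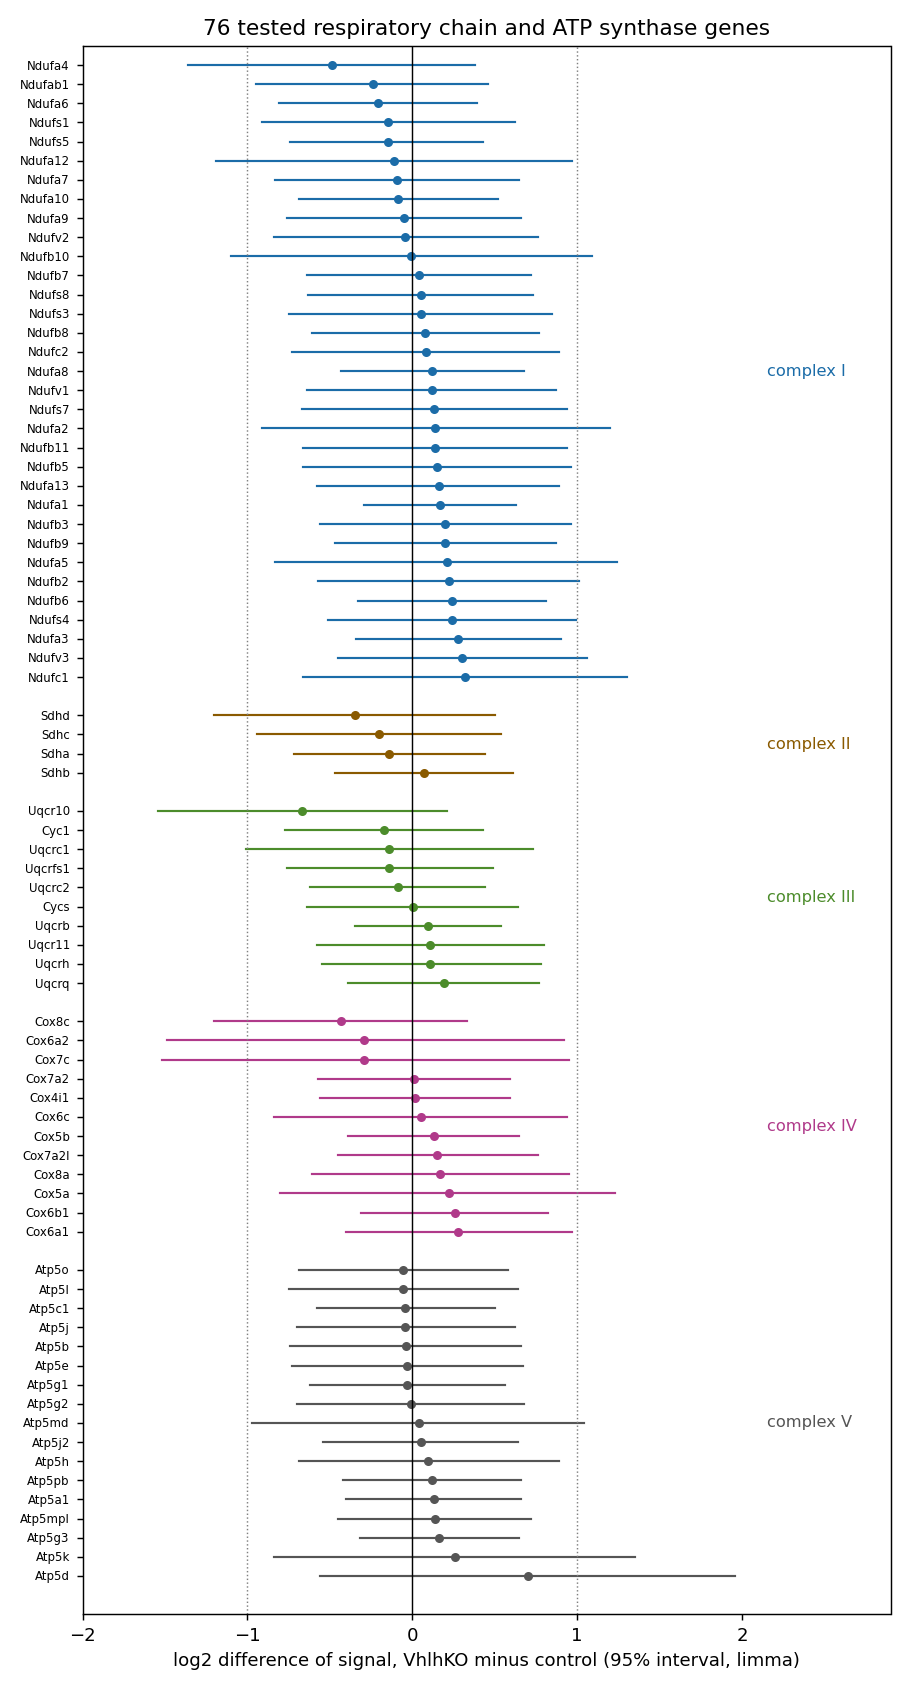
The log2 difference of signal (VhlhKO minus control, x axis) of the 76 tested members is plotted as a point with its 95% limma interval (line), by complex and sorted within it; the dotted lines mark a 2-fold change. All 76 intervals include 0, and 58 lie between the dotted lines.

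Signals below are in MAS5 units, a linear brightness scale, and are listed for arrays 1, 2 and 3 of each group in that order. Levels of different probe sets are not comparable with each other. Complex I, the NADH dehydrogenase, supplied the most members. Ndufa4, named as a complex I subunit but now placed in complex IV, had signals of 2133, 2783 and 1170 in controls and 1100, 1983 and 1149 in knockouts. Knockout 1, knockout 3 and control 3 were all low, so the groups overlapped, and the log2 difference was -0.49 (SE 0.39, 95% interval -1.36 to 0.38). Ndufa3, an accessory subunit of the membrane arm, had signals of 7038, 6517 and 7071 in controls and 11863, 6570 and 7418 in knockouts, a log2 difference of 0.28 (SE 0.28, 95% interval -0.34 to 0.90). Knockout 1 stood alone above the other arrays, and without it the difference was 0.023. For Ndufv3, an accessory subunit of the NADH-binding part, signals were 7466, 5445 and 9831 in controls and 13256, 6434 and 8798 in knockouts, a log2 difference of 0.30 (SE 0.33, 95% interval -0.45 to 1.06). Control 3 lay above 2 of the 3 knockouts, and the difference was 0.031 without knockout 1 and 0.085 without control 2. Ndufb6, another subunit of the membrane arm, had 4840, 5637 and 7533 in controls and 7547, 6456 and 6957 in knockouts, a log2 difference of 0.24 (SE 0.25, 95% interval -0.33 to 0.81).

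The core subunits of complex I, most of which hold the flavin or iron-sulphur clusters, had intervals that lay within 2-fold in 6 of 6 cases. Ndufv1, which binds NADH and the flavin and whose difference was nearest to the median of the complex, had signals of 6806, 6981 and 4245 in controls and 7483, 8236 and 4167 in knockouts, a log2 difference of 0.12 (SE 0.34, 95% interval -0.64 to 0.87). The arrays numbered 3 were low in both genotypes. Ndufv2, an iron-sulphur subunit beside it, showed 4927, 5352 and 10888 in controls and 4727, 7602 and 7294 in knockouts, with control 3 highest and knockout 1 lowest (log2 difference -0.044, SE 0.35). Ndufs7, which carries the cluster that hands electrons to ubiquinone, had 3448, 2827 and 4734 in controls and 6231, 2708 and 3607 in knockouts, with knockout 1 and control 3 highest (log2 difference 0.13, SE 0.36). Ndufs8, a further iron-sulphur subunit, had 3142, 3007 and 4537 in controls and 4952, 2910 and 3302 in knockouts, again with knockout 1 and control 3 highest (log2 difference 0.05, SE 0.30). Ndufs1 and Ndufs3, the other core members measured, had log2 differences of -0.15 (SE 0.34) and 0.052 (SE 0.36).

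Among the accessory subunits of complex I, Ndufab1, the mitochondrial acyl carrier protein, had signals of 2167, 1579 and 2535 in controls and 1738, 1318 and 2274 in knockouts (log2 difference -0.24, SE 0.31). Ndufa10 had 1922, 1848 and 1959 in controls and 2140, 1924 and 1415 in knockouts (log2 difference -0.086, SE 0.27), lowest on knockout 3. For Ndufa7 the signals were 1420, 1363 and 942 in controls and 1439, 1339 and 782 in knockouts (log2 difference -0.092, SE 0.33), low on both arrays numbered 3. In the B and C subunits described next, which were named because their probe sets differ in sign, control 3, knockout 1 and knockout 3 were the highest arrays. Ndufb2 had 2472, 2105 and 3331 in controls and 4180, 1903 and 3435 in knockouts (log2 difference 0.22, SE 0.35), Ndufb8 had 3639, 4340 and 6661 in controls and 5868, 3898 and 5411 in knockouts (log2 difference 0.078, SE 0.31) and Ndufb9 had 4916, 5538 and 6782 in controls and 9414, 4907 and 6071 in knockouts (log2 difference 0.20, SE 0.30). Ndufb11 had 9830, 7812 and 13572 in controls and 17066, 6995 and 11648 in knockouts (log2 difference 0.14, SE 0.36). Ndufc2 had 8429, 10208 and 20619 in controls and 13144, 9724 and 16481 in knockouts (log2 difference 0.083, SE 0.36), and Ndufb6, given above, had control 3, knockout 1 and knockout 3 on top as well. Ndufb7 did not share this order, with 4753, 4716 and 5922 in controls and 7727, 3951 and 4726 in knockouts, where control 1 and not knockout 3 was among the 3 highest. The remaining tested members of complex I had differences between -0.21 (Ndufa6) and 0.32 (Ndufc1).

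Complex II, succinate dehydrogenase, is also an enzyme of the citrate cycle. In Sdhd and Sdha the reverse order was seen, with control 1, control 2 and knockout 2 highest. Sdhd, a membrane anchor, had signals of 4234, 4568 and 3013 in controls and 2548, 5297 and 2078 in knockouts, lowest on knockout 3, knockout 1 and control 3, with a log2 difference of -0.35 (SE 0.38, 95% interval -1.20 to 0.50). Without knockout 3 the difference was -0.078 and without knockout 2 it was -0.75. Sdhc, the other anchor, had 1538, 1109 and 747 in controls and 1138, 917 and 813 in knockouts (log2 difference -0.20, SE 0.33), and Sdha, the flavoprotein, 10078, 12026 and 9207 in controls and 7448, 12047 and 9308 in knockouts (log2 difference -0.14, SE 0.26). Sdhb, the iron-sulphur protein, was the most even of all tested members, with 2853, 2902 and 3303 in controls and 3299, 3303 and 2924 in knockouts, a 1.16-fold range over the 6 arrays (log2 difference 0.073, SE 0.24).

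Complex III transfers electrons from ubiquinol to cytochrome c. Uqcr10, one of its smallest subunits, had the lowest p of all members and signals of 583, 448 and 965 in controls and 594, 364 and 292 in knockouts. Control 3 was the highest and knockout 3 the lowest array, while knockout 1 exceeded controls 1 and 2, and the log2 difference was -0.67 (SE 0.39, 95% interval -1.54 to 0.21), with an unadjusted limma p of 0.119. It was -0.36 without control 3, -0.44 without knockout 3, -0.13 without both arrays numbered 3 and -0.24 as the mean of its 3 probe sets, 1 of which went the other way at 0.21. Cyc1, cytochrome c1, had 6166, 4748 and 3860 in controls and 4540, 4621 and 3804 in knockouts, a log2 difference of -0.17 (SE 0.27, 95% interval -0.77 to 0.43). Uqcrq and Uqcrb, small subunits near the ubiquinone site, had 1441, 1510 and 1759 in controls and 2000, 1844 and 1533 in knockouts for Uqcrq (log2 difference 0.19, SE 0.26) and 20360, 21352 and 25158 in controls and 23518, 24385 and 23363 in knockouts for Uqcrb (log2 difference 0.098, SE 0.20). Uqcrc2, a core protein, had 9053, 8187 and 10353 in controls and 10196, 7619 and 8257 in knockouts (log2 difference -0.086, SE 0.24). Cycs, the mobile cytochrome c, had 8482, 10028 and 13566 in controls and 12007, 7774 and 12450 in knockouts (log2 difference 0.0034, SE 0.28), and with Uqcrc2 it lay next to the median of the complex.

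Complex IV, cytochrome c oxidase, consumes the oxygen, and several of its subunits exist in tissue forms. Cox6a1, the general form of subunit 6a, had signals of 15456, 14321 and 25323 in controls and 29657, 16267 and 21004 in knockouts, with knockout 1 and control 3 highest (log2 difference 0.28, SE 0.31, 95% interval -0.40 to 0.97). Cox6a2, the form best known from heart and skeletal muscle, was above the array median on all 6 arrays, with 3584, 1177 and 5220 in controls and 2668, 1466 and 3092 in knockouts (log2 difference -0.29, SE 0.53, 95% interval -1.49 to 0.92), control 3 being highest and control 2 lowest. The sign of its difference turned to 0.16 without control 3 and 0.035 without knockout 2. Of 10 listed muscle markers 1, Des, was bright enough to test, and its signals were 122, 33.8 and 167 in controls and 44.6, 155 and 58.4 in knockouts. Cox6b1 had 17397, 16915 and 20533 in controls and 29947, 18642 and 18549 in knockouts, with knockout 1 alone above the rest (log2 difference 0.26, SE 0.25, 95% interval -0.31 to 0.82), and the difference was 0.03 without that array.

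The forms of subunits 7 and 8 split into bright and dim probe sets. Cox7a2 had 15308, 16240 and 21368 in controls and 23100, 14393 and 16291 in knockouts (log2 difference 0.0094, SE 0.26). Cox7a2l, which joins complexes III and IV into supercomplexes, had 22999, 19792 and 24266 in controls and 36307, 20968 and 19994 in knockouts (log2 difference 0.15, SE 0.27, 95% interval -0.45 to 0.76), with knockout 1 highest. Cox8a, the general form of subunit 8, had 909, 973 and 492 in controls and 1089, 674 and 853 in knockouts (log2 difference 0.17, SE 0.35). Cox8c had the lowest p of the complex, with signals of 402, 258 and 395 in controls and 267, 315 and 198 in knockouts, control 2 lying below 2 knockouts (log2 difference -0.43, SE 0.34, 95% interval -1.20 to 0.33). The other 4 tissue forms, unlike Cox6a2 and Cox8c, were not bright enough to test. Signals were 2.29, 59.5 and 30.7 in controls and 32.5, 86.7 and 46.7 in knockouts for Cox7a1, 16.1, 5.59 and 14.4 in controls and 3.68, 59 and 53.9 in knockouts for Cox8b, 60.7, 15.8 and 25.5 in controls and 124, 6.55 and 60.8 in knockouts for Cox6b2 and 18.7, 4.79 and 1.54 in controls and 5.53, 3.74 and 6.36 in knockouts for Cox7b2, at most 1 of the 6 arrays lying above its median for any of them. Ndufb1 and Ndufb4 of complex I, with signals between 21.2 and 149, were the other members that were too dim.

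Cox4i1, the common form of subunit 4, had signals of 9368, 9679 and 13998 in controls and 11296, 9136 and 12704 in knockouts (log2 difference 0.016, SE 0.26). Cox5a and Cox5b, which surround the catalytic core, and Cox6c completed the complex, with Cox5b and Cox6c next to its median. Cox5a had 3231, 5007 and 11236 in controls and 7614, 4531 and 8254 in knockouts (log2 difference 0.22, SE 0.45) and Cox6c had 8281, 6532 and 15514 in controls and 11843, 6098 and 12972 in knockouts (log2 difference 0.053, SE 0.39), both with control 3, knockout 1 and knockout 3 on top. Cox5b had 18192, 19347 and 18050 in controls and 24314, 21818 and 15627 in knockouts (log2 difference 0.13, SE 0.23), highest on knockout 1 and lowest on knockout 3. The Cox7c probe set was dim, with signals of 101, 176 and 226 in controls and 91.3, 256 and 94.8 in knockouts, 3 arrays above their median and a difference of -0.29 (SE 0.55, 95% interval -1.52 to 0.95).

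Complex V, the ATP synthase, consists of the catalytic F1 part and the membrane part with the rotating c ring. Atp5d, the delta subunit of the F1 stalk, had the most positive difference of all members and signals of 2630, 2827 and 1985 in controls and 11193, 2762 and 2045 in knockouts. Knockout 1 alone was high, the range over the arrays was 5.64-fold, the widest among the tested members, and the log2 difference was 0.70 (SE 0.56, 95% interval -0.56 to 1.96). Without knockout 1 it was -0.045. A second probe set of Atp5d had 1687, 1600 and 1183 in controls and 2337, 1698 and 957 in knockouts. Atp5a1, the alpha subunit of F1, had 20245, 19522 and 17487 in controls and 23601, 24320 and 15828 in knockouts (log2 difference 0.13, SE 0.24, 95% interval -0.40 to 0.66).

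The c subunit is made from 3 genes whose mature proteins are the same. Atp5g1 had 656, 740 and 694 in controls and 707, 782 and 573 in knockouts (log2 difference -0.03, SE 0.26), Atp5g2 had 1645, 1491 and 1156 in controls and 1566, 1754 and 1017 in knockouts (log2 difference -0.0076, SE 0.31) and Atp5g3 had 22313, 23071 and 18454 in controls and 26740, 25081 and 19960 in knockouts (log2 difference 0.16, SE 0.22, 95% interval -0.32 to 0.65). Each of the 3 was lower on knockout 3 than on knockouts 1 and 2, and the groups overlapped for each. Among the other membrane and stalk subunits, Atp5k had 2300, 2981 and 7214 in controls and 6668, 2527 and 5007 in knockouts, with control 3, knockout 1 and knockout 3 on top (log2 difference 0.26, SE 0.49, 95% interval -0.84 to 1.35). Atp5md, nearest to the median of the complex, had 1237, 1344 and 2906 in controls and 1346, 3065 and 1269 in knockouts, with knockout 2 and control 3 high (log2 difference 0.039, SE 0.45). Atp5j2 had 8491, 8798 and 11938 in controls and 12522, 8037 and 9863 in knockouts (log2 difference 0.052, SE 0.26), and Atp5o, the stalk protein that confers oligomycin sensitivity, had 1919, 1477 and 2247 in controls and 1624, 1599 and 2185 in knockouts (log2 difference -0.056, SE 0.28). Atp5b, the catalytic beta subunit, had a log2 difference of -0.041, and the other tested Atp5 genes lay between -0.055 (Atp5l) and 0.14 (Atp5mpl).

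**Figure D2:**
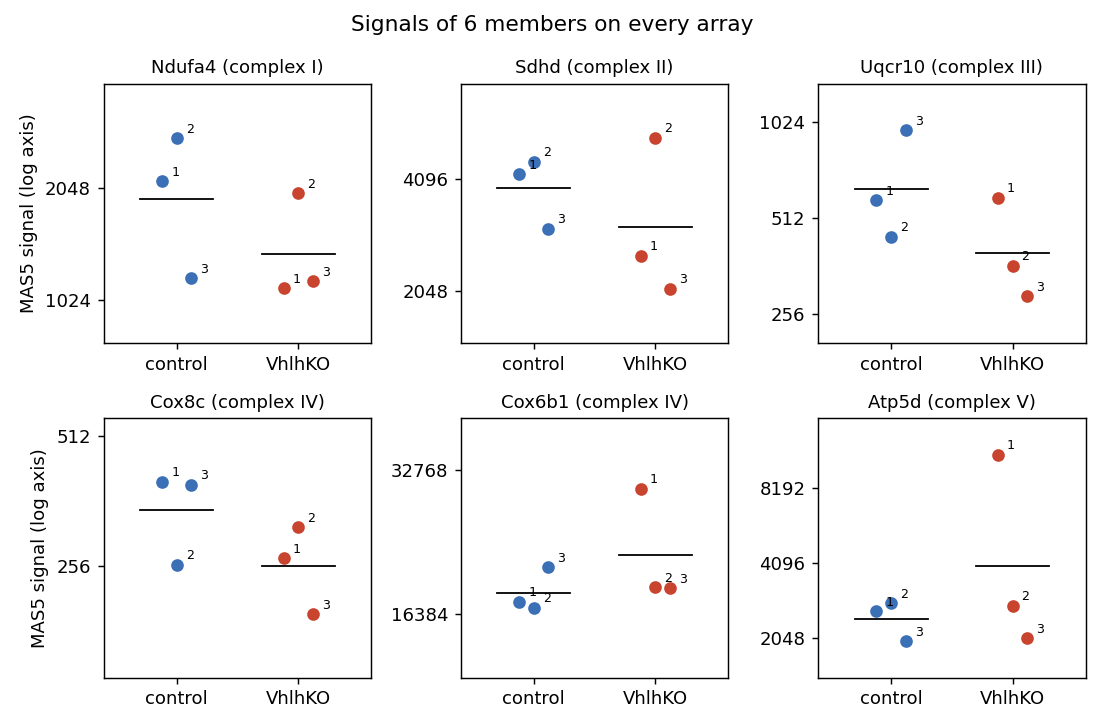
MAS5 signals (log axis) of 6 members are plotted by genotype, with the array number beside each point and the group mean of log2 signals as a line. The groups overlap in each panel, and the high value of Atp5d rests on knockout 1 (11193 against at most 2827 elsewhere).

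Many members shared an order of arrays that crossed the genotypes. Of the 76, 28 (36.8%) had control 3, knockout 1 and knockout 3 as their 3 highest arrays, against 12.3% of all genes tested. The opposite order, with control 1, control 2 and knockout 2 on top, was found in 10 members (13.2%) and in 12.2% of all genes. Of the 28 members, 18 belonged to complex I, 5 to complex IV, 4 to complex V, 1 to complex III and 0 to complex II. Within complex I they were 16 of the 27 tested accessory subunits and 2 of the 6 core subunits, and 2 core subunits had the opposite order. The share was not tested, since the order was noticed in these data.

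The median deviation of complex I from its genes' own means was -0.12, -0.22 and 0.25 on controls 1 to 3 and 0.28, -0.31 and 0.10 on knockouts 1 to 3. Its 27 tested accessory subunits had -0.13, -0.22 and 0.25 on the controls and 0.28, -0.32 and 0.12 on the knockouts. The 6 core subunits did not share this order, with 0.017, -0.025 and -0.082 on the controls and 0.23, 0.29 and -0.13 on the knockouts. For complex IV the median deviation was -0.19, -0.22 and 0.37 on the controls and 0.32, -0.25 and -0.01 on the knockouts. Complex II ran the other way, with 0.17, 0.21 and -0.15 on the controls and -0.16, 0.19 and -0.20 on the knockouts. Over all genes tested the same median was within 0.027 of 0 on each array. The 3 arrays on which complexes I and IV were highest were also those on which the array's own actin control probe sets had the highest ratio of 3′ to 5′ signal, a measure of how complete the labelled RNA is. This ratio was 3.83, 3.34 and 15.1 on controls 1 to 3 and 11.3, 3.43 and 7.97 on knockouts 1 to 3. The corresponding Gapdh ratio was 5.71, 4.78 and 5.74 on the controls and 11.9, 6.12 and 4.64 on the knockouts and did not follow the same order. The part of RNA completeness in the array pattern was not tested.

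**Figure D3:**
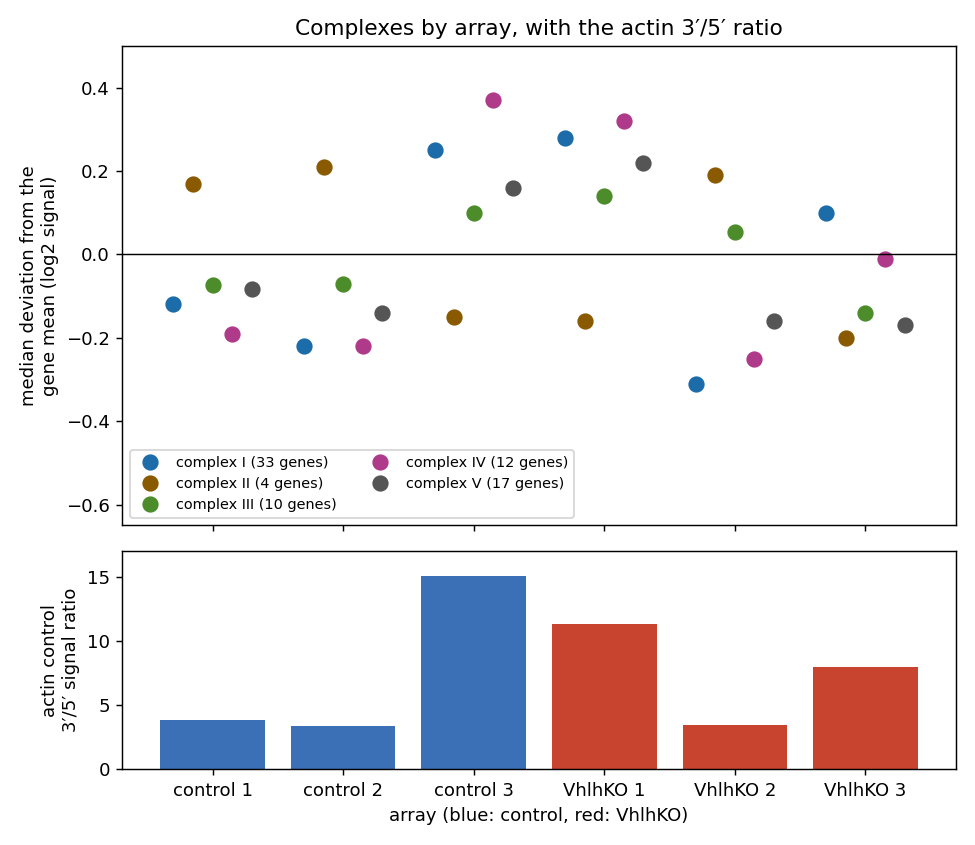
Upper panel: median deviation of log2 signal from each gene's mean over the 6 arrays, by complex, for each array (x axis). Lower panel: ratio of 3′ to 5′ signal of the actin control probe sets. Complexes I and IV were highest on control 3 and knockout 1, where the ratio was 15.1 and 11.3, and complex II was low there.

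The same order appears when arrays of one number, which share age and recorded sex, are set against each other. In the pair numbered 1, in which the actin ratio was higher in the knockout, 55 of 76 members were higher in the knockout, with a median log2 difference of 0.27 (0.64 for complex I and -0.44 for complex II). In the pair numbered 2, with nearly equal ratios, 36 members were higher and the median was -0.03. In the pair numbered 3, in which the ratio was higher in the control, 18 were higher and the median was -0.18. Over all genes tested the median was 0.015, 0.014 and 0.013 in the 3 pairs. The log2 actin ratio was also fitted as a covariate, an alternative chosen after these values were seen. The median standard error then fell from 0.31 to 0.23 for the members and from 0.35 to 0.30 for all genes tested. Since the ratio was chosen for its match with the members' array order, this fall is not a test of RNA completeness. The median difference of the members was 0.0083, with 0 members passing and a lowest adjusted limma p of 0.9996. In that fit 1 member, Uqcr10, had an unadjusted p under 0.05 (limma, 0.0421, below 0), against 4.14% of all genes (3.02% higher and 1.12% lower). Signals of acinar markers also differed widely between arrays, and their summed signal was 155061 to 534177 in controls and 14456 to 675229 in knockouts, lowest on knockout 3. For fibroblast, stellate and matrix markers it was 4231 to 8066 in controls and 7379 to 25364 in knockouts, highest on knockout 3. The part of these cell types in the member values was not tested.

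Probe sets of the same gene did not always agree in sign. Of 47 members with more than 1 bright probe set, 21 had probe sets whose differences took opposite signs, none of these probe sets having an unadjusted limma p under 0.05. The share over all genes was not computed, so the count does not set the members apart. The brightest probe set of Cox5a, with the signals given above, and a second, with 1385, 1685 and 5829 in controls and 2109, 843 and 4979 in knockouts, were high on control 3 and knockout 3, while another had 1790, 2778 and 1597 in controls and 2144, 2435 and 1896 in knockouts, with control 3 the lowest array. The brightest probe set of Ndufs7 was highest on knockout 1 and control 3, and its other one had 2182, 2024 and 1480 in controls and 2273, 1844 and 1248 in knockouts, lower on both arrays numbered 3. The second probe set of Atp5a1 had 13684, 13006 and 5754 in controls and 8237, 14567 and 7176 in knockouts, with control 3 lowest, while the brightest varied 1.54-fold in all. Ndufc2 had 3 probe sets with control 3 highest, and the dimmest of them, with 1080, 1419 and 1515 in controls and 1128, 967 and 1316 in knockouts, varied least. Where in the transcripts these probes lie is not analysed here.

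**Figure D4:**
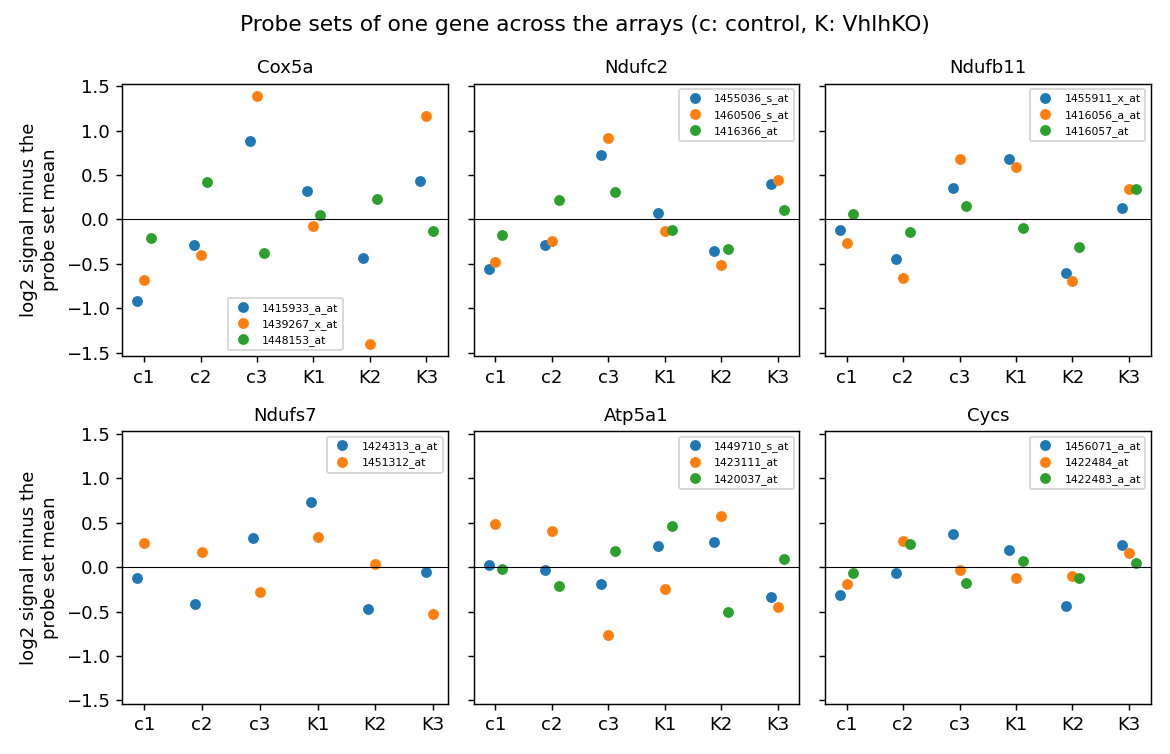
Log2 signal minus the probe set's own mean over the 6 arrays (y axis) is plotted for the bright probe sets of 6 members (colours) on each array (c1 to c3 controls, K1 to K3 VhlhKO). In Cox5a, control 3 is the highest array of 2 probe sets and the lowest of the other.

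Among the Cycs probe sets the brightest was highest on control 3, knockout 3 and knockout 1, and the others had 4170, 5848 and 4655 in controls and 4370, 4468 and 5309 in knockouts and 2263, 2838 and 2100 in controls and 2485, 2183 and 2448 in knockouts, with control 2 highest in both. For Ndufb11 the brightest 2 probe sets were high on control 3 and knockout 1, and the remaining one, with 5027, 4366 and 5344 in controls and 4499, 3870 and 6115 in knockouts, was highest on knockout 3. In the remaining members with disagreeing probe sets the differences of the extreme probe sets were -0.60 and 0.13 for Atp5j2, -0.29 and 0.26 for Atp5k, -0.056 and 0.01 for Atp5o, -0.94 and 0.18 for Cox5b, -0.086 and 0.37 for Ndufa10, -0.092 and 0.32 for Ndufa7 and -0.24 and 0.41 for Ndufab1. They were -0.28 and 0.29 for Ndufb2, -0.23 and 0.078 for Ndufb8, -0.13 and 0.20 for Ndufb9 and -0.31 and 0.05 for Ndufs8. They were -0.068 and 0.12 for Ndufv1, -0.10 and 0.15 for Ndufv2 and -0.41 and 0.61 for Uqcrq. Some came from probe sets whose lowest signal lay below that array's median. Signals ran from 20.1 to 156 (0.61) and 43.7 to 191 (-0.41) for Uqcrq and from 43.2 to 312 for Cox5b (-0.94). They ran from 48.2 to 187 for Atp5j2 (-0.60) and 70.5 to 151 for Ndufab1 (0.41). For Ndufb2 (-0.28) they ran from 64.9 to 133 and for Ndufb8 (-0.23) from 113 to 253. The other extremes lay above the median. The part of dim signal in these values was not tested.

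Other mitochondrial genes gave a frame for these values. Of 46 assembly factors of the complexes 42 were tested, 19 were higher and 23 lower in the knockout, the median difference was -0.046 and 0 passed. The lowest p among them belonged to Acad9, a complex I assembly factor, with signals of 548, 636 and 322 in controls and 271, 421 and 290 in knockouts, and Sco2, a copper chaperone of complex IV, with 320, 343 and 286 in controls and 172, 339 and 172 in knockouts. Both had differences below 0 (-0.59 and -0.55) with overlapping groups. Of 18 regulators of mitochondrial gene expression, 6 were higher and 12 lower, with a median of -0.19 and 0 passing. Groups were separate and lower in the knockout for 4 of the 18 (Tfb2m, Twnk, Polg and Lrpprc), against 2.69% of all genes. The same held for 2 of the 42 assembly factors and 0 of the 21 carriers, import and membrane proteins described below. The lists were chosen with earlier results of these data known, and the counts were not tested. Twnk, the mitochondrial DNA helicase, had 837, 988 and 1086 in controls and 707, 796 and 687 in knockouts and Polg, the mitochondrial DNA polymerase, 447, 463 and 473 in controls and 336, 362 and 423 in knockouts, with log2 differences of -0.41 (SE 0.26) and -0.31 (SE 0.27). The 21 tested carriers, import and membrane proteins had a median of 0.035, with 15 higher, 6 lower and 0 passing. Slc25a4, an ADP/ATP carrier, had 11680, 13397 and 11091 in controls and 15126, 16247 and 12709 in knockouts (log2 difference 0.28, SE 0.22). Mfn2, a fusion protein of the outer membrane, had 1322, 881 and 934 in controls and 1325, 713 and 576 in knockouts (log2 difference -0.33, SE 0.36).

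Several mitochondrial genes with a known link to HIF had larger differences than the subunits, a contrast that was not tested. Chchd4 (0.26) and Iscu (-0.21) lay within the range of the subunits. The list was chosen with earlier results of these data known, so counts from it are no independent support. Of the 10 listed, 8 were tested, 6 were higher and 2 lower, the median difference was 0.91, 0 passed the adjusted threshold, and 4 had an unadjusted p under 0.05, all higher in the knockout, where 2.03% of all genes did. Fam162a, a mitochondrial protein induced by HIF, had signals of 1434, 1422 and 1455 in controls and 4707, 3317 and 4662 in knockouts, with no overlap (log2 difference 1.54, SE 0.26, adjusted limma p 0.269). Bnip3, a mitophagy receptor, was also separate, with 8471, 7159 and 5202 in controls and 22305, 22766 and 15393 in knockouts (1.54, SE 0.27, adjusted limma p 0.294). Among genes with direct bearing on complex IV, Lonp1, the protease that removes COX4-1 under hypoxia, had 1805, 1841 and 912 in controls and 3104, 2711 and 1789 in knockouts (log2 difference 0.77, SE 0.36). Cox4i2, the alternative form of subunit 4 that HIF is known to raise, had signals of 127, 166 and 150 in controls and 15.7, 105 and 75.7 in knockouts and no overlap (-1.55, SE 0.76, adjusted limma p 1). It passed the filter on dim probe sets only through the 3 controls, so its direction is no support for a change. Ndufa4l2 was too dim to test, with 78.9, 26.1 and 67.2 in controls and 98.6, 20 and 140 in knockouts. Of 10 listed beta-cell markers 8 were tested, and all 8 were above the array median on all 6 arrays. Of these, 3 were higher and 5 lower in the knockout, with a median of -0.13 and 0 passing. The insulin gene Ins2 had 14810, 17273 and 18232 in controls and 31477, 28889 and 11545 in knockouts (log2 difference 0.39) and the beta-cell hormone gene Ucn3 7212, 3699 and 3359 in controls and 3913, 1534 and 2301 in knockouts (-0.90). Genes of the exocrine pancreas were bright as well: the trypsinogen gene Prss2 had 51594, 56413 and 25656 in controls and 62589, 68564 and 2069 in knockouts, far lower on knockout 3 than elsewhere. The mean log2 difference was below 0 for 14 of 14 tested acinar markers, with a median of -1.05 and 0 passing. Their mean deviation from the gene means was 0.98, 1.21 and -0.78 on controls 1 to 3 and 1.07, 1.44 and -3.92 on knockouts 1 to 3. Knockouts 1 and 2 were thus not low. Fibroblast, stellate and matrix markers were higher in the knockout for 11 of 11 tested (median 1.23) and endothelial markers for 9 of 9 (0.44). So were 7 of 7 alpha, delta and PP markers (0.34) and 5 of 5 leukocyte markers (0.39). Of the neural and Schwann markers 5 were higher and 1 lower, and of the duct markers 3 were higher and 3 lower. In each of these lists 0 passed, and their part in the member values was not tested.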

How the data were processed

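RNA of 6 islet batches (3 control, 3 Vhlh knockout) was amplified in a protocol of repeated cycles and hybridised to 1 array each, per the labels. The values deposited by the authors are MAS5 signal, an intensity on a linear scale, and the submitters' processing notes name GCOS 1.4 and MAS5. The 2% trimmed mean of each array was 500.003, so the values had been scaled to a common level. Of 45101 probe sets, 64 controls were left out of the tests, and 34945 had 1 gene symbol, 932 several and 9160 none in the platform annotation (34741 matched RefSeq by Entrez ID). Each gene was represented by its brightest probe set and tested where that lay above the array median (101.9 to 122.7) on at least 3 arrays, which left 11703 genes. Log2 signals were fitted with limma 3.58.1 (R 4.3.3; lmFit, eBayes with an intensity trend) and p-values adjusted by Benjamini-Hochberg at 0.05. The script was tested on simulated data. Deviations from the group means of same-numbered arrays correlated at 0.14, 0.41 and 0.42 over the 11703 genes. Control 1 also correlated at 0.14 with knockout 2, so these values do not single out the pair numbered 1. Because arrays of one number share age and recorded sex, the numbers were taken to pair the arrays, and the paired fit was an alternative. Other alternatives were quantile or median scaling, a pseudocount of 32, other filters, other probe set rules, no trend, array weights, left-out arrays and, added after seeing the data, the actin ratio as a covariate.

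The members and lists were chosen with earlier results of these data known. Values on every array are given for the 4 members of lowest p and the one nearest the median in each complex, isoform pairs, the c subunit genes, members whose probe sets differ in direction, and the 2 genes of lowest p in each further list. Cox4i1, Cox7c, Ndufb7, Lonp1, Cox4i2, Ndufa4l2 and the cell type markers were added to these.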

Additional observations from a re-analysis of the deposited data

How the results depend on the processing

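Of 20 alternatives, none moved a member past the adjusted threshold. They gave 900 differences of the 45 named and tested members, 119 of them with the sign changed, and 12 of the 45 kept 1 sign throughout. The replicate block, which uses the pairing of array numbers, changed no call of a member, and 2 genes passed with it as without it. With a stricter filter on dim probe sets 1 gene passed in place of 2. Over the fits that leave out 1 array or both arrays of a number, between 0 and 5 genes passed: 0 without control 1, knockout 1, knockout 3, both arrays numbered 1 or both numbered 3, 4 without control 2 or knockout 2, and 5 without both numbered 2. An unadjusted limma p under 0.05 was reached by 1 member in 5 alternatives: Ndufa3 when probe sets were averaged, Ndufa4 without control 3, Uqcr10 without knockout 1 and with the actin covariate, and Sdhd without knockout 2. It was reached by 297 of all 10101 genes tested with averaging. In the other fits, in the order given, 412, 489, 485 and 382 of all 11703 genes reached it. Averaging also replaced both genes that passed, Ak4 and Prelid2, by Adm and Pgk1. Members with separate groups numbered 3 of 75 (4%, against 7.2% of all genes) when probe sets were averaged. They numbered 2 (2.63%, against 11.4%) to 10 (13.2%, against 18.4%) of 76 when 1 array was left out, and 7 (9.21%, against 24.9%) to 19 (25%, against 29.8%) when both arrays of a number were, where fewer arrays make separation easier. The median of complex I ran from -0.18 (without both arrays numbered 1) to 0.30 over those fits. With quantile normalization, the sign turned for Atp5g2 (0.0047), Cox7a2 (-0.023) and Cycs (-0.0018). With centring on the array median, the sign turned for Cox7a2 (-0.022) and Cycs (-0.028). With probe sets that may cross-hybridise (suffix _x_at) left out, the sign turned for Atp5k (-0.29), Cox5b (-0.0038), Ndufs8 (-0.076) and Ndufv2 (0.15). When all probe sets of a gene were averaged, dim ones included, the sign turned for Atp5j2 (-0.14), Cox5b (-0.0044), Cycs (-0.14), Ndufa10 (0.14), Ndufa7 (0.18), Ndufab1 (0.14), Ndufb8 (-0.077), Ndufs8 (-0.095) and Ndufv2 (0.0028). With array weights, the sign turned for Atp5o (0.012), Cox8a (-0.068), Ndufv1 (-0.06) and Ndufv2 (0.26). With the actin ratio as a covariate, the sign turned for Atp5g2 (0.038), Atp5j2 (-0.0081), Cox6c (-0.073), Cox7a2 (-0.048), Cycs (-0.066), Ndufb8 (-0.00028), Ndufc2 (-0.022) and Ndufs8 (-0.02). Leaving out arrays moved the difference across 0 for 32 members, from -0.045 to 1.18 for Atp5d, -0.13 to 0.095 for Atp5g1, -0.17 to 0.23 for Atp5g2, -0.20 to 0.21 for Atp5j2, -0.38 to 0.74 for Atp5k, -0.54 to 0.66 for Atp5md, -0.22 to 0.083 for Atp5o, -0.29 to 0.71 for Cox5a, -0.017 to 0.31 for Cox5b, -0.043 to 0.56 for Cox6a1, -0.91 to 0.16 for Cox6a2, -0.0032 to 0.46 for Cox6b1, -0.21 to 0.41 for Cox6c, -0.28 to 0.21 for Cox7a2, -0.12 to 0.37 for Cox7a2l and -0.14 to 0.53 for Cox8a. For the others it ran from -0.33 to 0.0082 for Cyc1, -0.25 to 0.22 for Cycs, -0.21 to 0.11 for Ndufa10, -0.28 to 0.18 for Ndufa7, -0.19 to 0.48 for Ndufb11, -0.051 to 0.55 for Ndufb2, -0.23 to 0.33 for Ndufb8, -0.17 to 0.41 for Ndufb9, -0.20 to 0.47 for Ndufc2, -0.23 to 0.40 for Ndufs7, -0.25 to 0.30 for Ndufs8, -0.12 to 0.42 for Ndufv1, -0.32 to 0.32 for Ndufv2, -0.32 to 0.03 for Sdha, -0.46 to 0.057 for Sdhc and -0.22 to 0.034 for Uqcrc2. The cause of these sign changes was not tested. MAS5 signals carry no read depth, and the number of arrays and the brightness of a probe set over the array limit the precision. With 3 arrays a group, a change of a size that lies inside a member's interval is not excluded.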
